A study of Mus musculus with 12 samples.

Results

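The cytosolic ribosomal protein genes of splenic CD4+ T cells were examined in mice with and without ligature-induced periodontitis, before and after stimulation through the T cell receptor. The members were taken by name, as the protein-coding genes whose symbols denote a protein of the small (Rps, Rpsa) or the large (Rpl, Rplp) cytosolic subunit, with mitochondrial ribosomal proteins and pseudogenes left out. This gave 79 of the 55414 gene records, of which 32 encode small-subunit and 47 large-subunit proteins, spread over 19 chromosomes. Counts were sufficient for testing in 77 of them. The remaining pair, Rps4l and Rpl39l, are near copies of Rps4x and Rpl39. Rps4l had between 0 and 17 reads per library and Rpl39l between 0 and 3.

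The ribosome is assembled from ribosomal RNA and ribosomal proteins, and each protein is needed in about the same number of copies as its partners. A resting T cell makes little protein, and on antigen-receptor stimulation it grows, enters the cell cycle and builds new ribosomes. Messages of ribosomal proteins belong to the terminal oligopyrimidine (TOP) class, which starts with a C followed by a run of pyrimidines and whose translation is governed by the kinase mTOR. Several of the proteins have roles outside the ribosome: Rpl5 and Rpl11 bind Mdm2 and so act on p53, Rpsa has been described as a laminin receptor, and Rps27l is a paralogue of Rps27 whose gene is a p53 target. Mutation of RPS19, RPS24, RPS26, RPL5, RPL11 or RPL35A in people causes Diamond-Blackfan anaemia.

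All mice were BALB/c and 18 weeks old. In the LIP group a silk ligature had been tied around a maxillary molar on both sides, and the control mice (CTL) were anaesthetised without a ligature. CD4+ T cells were isolated from the spleen by negative selection, and RNA was taken either at once (day 0) or after culture with IL-2 at 10 ng/mL, anti-TCRβ at 1 µg/mL and anti-CD28 at 1 µg/mL (day 2), so that every day 2 library, CTL or LIP, was stimulated. These doses are those of the labels, and the study's methods give a lower one for IL-2 and a higher one for anti-TCRβ. Each of the 4 groups had 3 libraries, named here by the number that opens their titles: CTL 88, 89 and 94 and LIP 92, 93 and 94 on day 0, and CTL 92, 93 and 97 and LIP 90, 96 and 97 on day 2. What the number stands for is not said, and 92, 93, 94 and 97 each occur in both a CTL and a LIP library, 94 on day 0, 97 on day 2, and 92 and 93 across the days. In bulk RNA fewer cells of a type and less RNA per cell cannot be told apart, and the p-values measure the spread between these libraries only. For CTL 93, LIP 96, CTL 97 and LIP 97 on day 2 the treatment labels name a differently numbered CD antibody in place of anti-CD28. The design text calls the mice male, whereas Xist, the RNA of the inactive X chromosome, was at 2041 to 4232 CPM (counts scaled to library size) in the 12 libraries and the Y-linked gene Ddx3y was at 0 in each of them.

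Libraries held between 6249094 and 7845715 gene counts on day 0 and between 8691745 and 12866751 on day 2. The 8 CD4 T cell markers were all detected, with a summed level of 2299 to 2789 CPM on day 0 and 2799 to 3191 on day 2. The CD8, NK and myeloid cell lists stayed at or under 13.2 CPM. Of the 6 myeloid markers 4 had counts, and S100a8 and S100a9 were at 0. That list summed to 5.60 to 11.2 CPM in CTL and 7.80 to 13.1 CPM in LIP on day 0. B cell markers summed to 96.7 to 127 CPM on day 0 and 20.8 to 59.3 on day 2. Levels are CPM scaled by the trimmed mean of M-values (TMM) over the 12 libraries, a gene's level therefore being relative to the other RNA in its library. Fold changes are on the log2 scale with their standard error (SE) from edgeR's quasi-likelihood fit across all tested genes, and adjusted p-values are by Benjamini-Hochberg over all of those genes, with a call at an adjusted p below 0.05.

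The sequences around the transcription start are shown for 8 genes on which the comparisons below turn, since the TOP element lies there. Each line gives 15 bases before and 15 from the start on, on the transcript strand, from the RefSeq promoter table (GRCm38.p6, not the build of the counts, so no coordinates are given). Capitals mark the longest unbroken run of C and T in the window.
Rps24: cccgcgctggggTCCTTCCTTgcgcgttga
Rpl41: cacacgggccggCTCggaagtgacgacacc
Rps26: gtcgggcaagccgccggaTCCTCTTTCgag
Rpl35: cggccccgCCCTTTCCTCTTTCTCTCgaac
Rps18: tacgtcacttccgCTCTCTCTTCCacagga
Rps6: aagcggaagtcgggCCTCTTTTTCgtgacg
Rps27: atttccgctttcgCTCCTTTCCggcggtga
Rps27l: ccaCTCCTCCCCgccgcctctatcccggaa
The runs of Rps6, Rps18, Rps24, Rps27 and Rpl35 cover the annotated start, that of Rps26 begins after it, and those of Rpl41 and Rps27l end before it. Of the 79 genes, 58 were in the table. A C followed by at least 4 pyrimidines, read on the transcript strand only, stood exactly at the annotated start in 13 of the 58 (22.4%) and in 442 of 15686 protein-coding genes (2.82%). Allowing the C to lie within 5 bases of the start, it was found in 28 members (48.3%) and in 3495 of all (22.3%). These shares depend on how exactly starts are annotated, and a gene without a match here may still have the element at another start.

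The share of all gene counts that fell on the 79 genes was 3.51, 2.98 and 3.87% in the CTL libraries of day 0 and 3.25, 3.03 and 3.15% in the LIP libraries. After stimulation it was 5.03, 5.19 and 5.61% in CTL and 5.46, 7.12 and 6.44% in LIP. The ribosomal protein share was thus larger in every day 2 library than in any day 0 library, and on day 2 LIP 90, the lowest LIP library, lay within the CTL range. On the TMM scale the summed level was 33081, 28111 and 35605 CPM in CTL on day 0 (32266 ± 3813, SD, n = 3) and 29128, 26762 and 27901 CPM in LIP. On day 2 it was 52303, 55783 and 60586 CPM in CTL (56224 ± 4159, SD, n = 3) and 62944, 81192 and 72496 CPM in LIP (72210 ± 9127, SD, n = 3). The groups overlapped on day 0 and did not on day 2, where LIP 90 stood just above CTL 97. The small-subunit sum went from 14914 ± 1706 CPM to 23276 ± 1744 in CTL and from 12734 ± 541 to 30270 ± 3784 in LIP (SD, n = 3 each), and the large-subunit sum from 17352 ± 2107 to 32948 ± 2422 and from 15196 ± 643 to 41940 ± 5344.

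**Figure D1:**
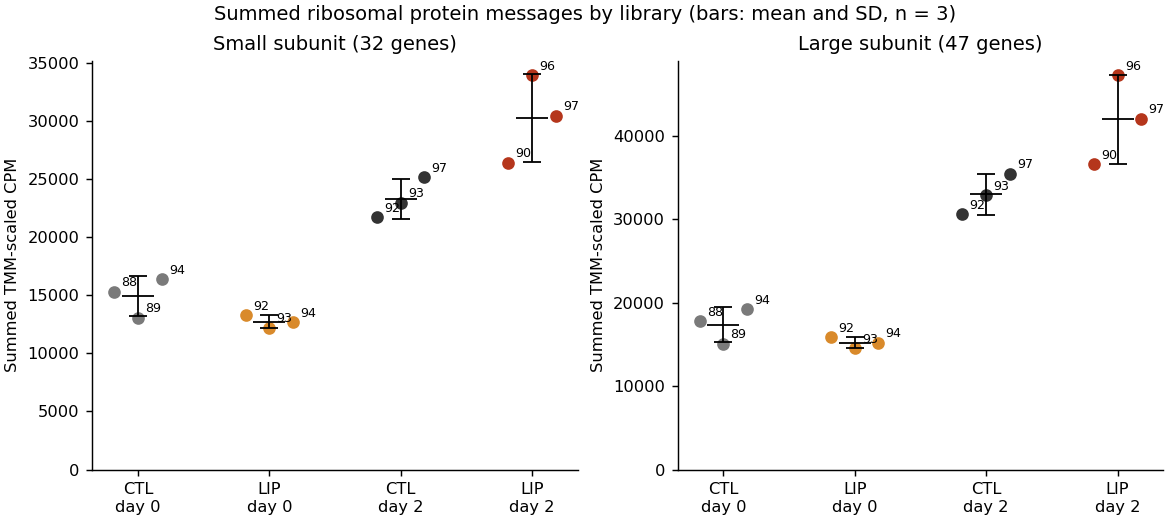
Summed TMM-scaled CPM of the small-subunit (left) and large-subunit (right) genes in each of the 12 libraries, numbered as in the labels, the bars giving mean and SD in each group (n = 3). On both panels each day 2 library lies above all day 0 libraries, and LIP 90 is the lowest of the day 2 LIP libraries.

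Stimulation in culture was addressed first, by comparing day 2 with day 0 within CTL. Of the 77 genes 65 rose and 1, Rps27, fell (85.7% called either way), against 35.3% of the 15475 genes tested that rose and 33.7% that fell. The median log2 fold change was 0.76, a 1.69-fold rise, with 0.63 for small-subunit and 0.86 for large-subunit genes. Within LIP 76 of the 77 rose and none fell, against 36.6% of all genes that rose and 35.2% that fell, with a median of 1.31 (2.48-fold), 1.24 for the small and 1.39 for the large subunit. The only gene not called in LIP was Rps27, at 0.06 ± 0.14 (SE, adjusted p = 0.733). Day 0 cells were freshly isolated and day 2 cells cultured, so that stimulation and culture cannot be told apart. Of the 5 activation markers, Il2ra, Mki67, Myc and Tfrc were higher in every day 2 library than in any day 0 library, while Cd69 was at 387, 297 and 215 CPM in CTL on day 0 and at 327, 346 and 309.8 CPM on day 2. The sum of the 5 was 460 to 665 CPM on day 0 and 4108 to 5833 CPM on day 2. Scaling by the upper quartile shifted the median of all tested genes by -0.29 in CTL and -0.32 in LIP. It left 50 members up and 1 down in CTL (66.2%, below the 71.6% of all genes then called either way) and 71 up in LIP (92.2%, against 73.5%), and the members' median was 0.78 above that of all genes in CTL and 1.32 above it in LIP.

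**Figure D2:**
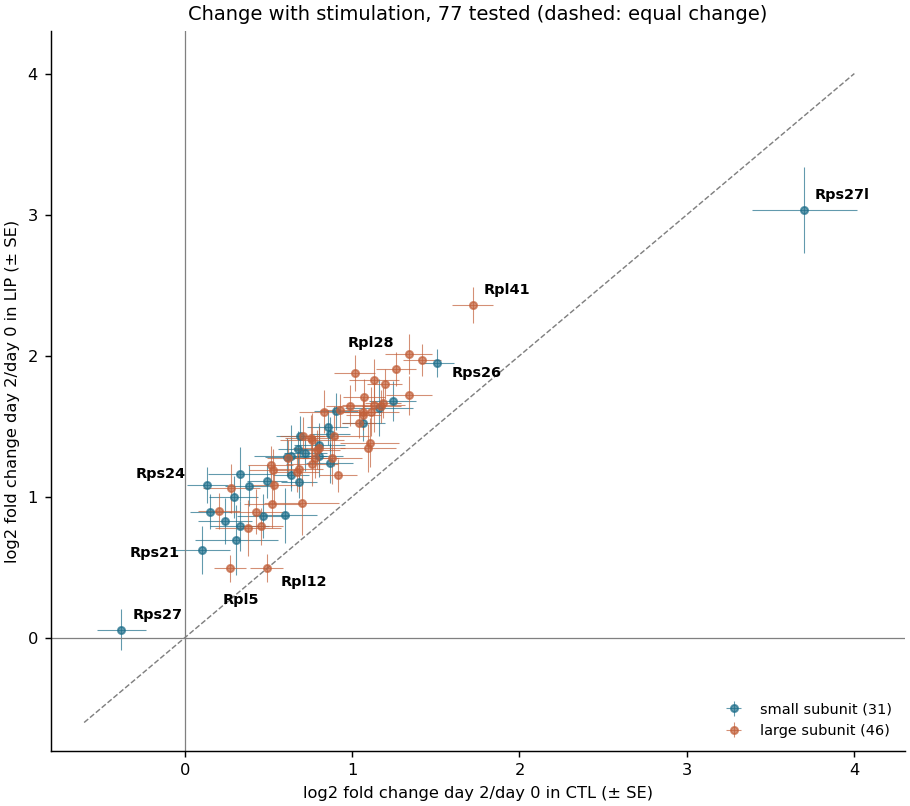
Log2 fold change between day 2 and day 0 of each tested ribosomal protein gene in CTL (horizontal) and LIP (vertical), with standard errors as lines and the dashed line at equal change; the 2 axes use separate libraries. Nearly all points lie above the dashed line, with Rps27l, Rpl12 and Rps27 marking the extremes described in the text.

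After Rps27l, described below, the largest rises in CTL were those of Rpl41, Rps26, Rpl29 and Rplp0, and in LIP those of Rpl41, Rpl28, Rpl29 and Rps26. Rpl41, which encodes the shortest ribosomal protein, lies on chromosome 10 (GRCm39, chr10:128383979-128387628, minus strand). It was at 550.1, 439 and 512 CPM in CTL and 390, 401 and 433 CPM in LIP on day 0. On day 2 it was at 1395, 1827 and 1724 CPM in CTL and 2011, 2264 and 2011 CPM in LIP. The days did not overlap in either group, and the log2 change was 1.72 ± 0.12 in CTL (SE, edgeR adjusted p = 4.7e-08) and 2.36 ± 0.13 in LIP (adjusted p = 3.21e-09). Its window above holds the shortest pyrimidine run of the 8 shown. Rps26, a protein at the messenger RNA exit channel, was at 271, 264 and 292 CPM in CTL on day 0 and at 697, 865 and 789.9 CPM on day 2, a log2 change of 1.51 ± 0.10 in CTL (adjusted p = 2.45e-08) and 1.95 ± 0.10 in LIP. For Rpl29 the changes were 1.42 ± 0.11 and 1.97 ± 0.11, for Rpl28 1.34 ± 0.14 and 2.01 ± 0.14, and for Rplp0, the base of the stalk that recruits translation factors, 1.34 ± 0.14 and 1.72 ± 0.14, all with edgeR adjusted p-values under the threshold in both groups. The partners of Rplp0 in the stalk had smaller estimates. Rplp1 rose by 0.70 ± 0.22 in CTL and 0.95 ± 0.22 in LIP, whereas Rplp2, at 0.38 ± 0.20 in CTL (adjusted p = 0.0994), was called in LIP alone (0.78 ± 0.20, adjusted p = 0.00289).

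Other members were chosen for their roles. Rps6, the substrate of the kinase that mTOR activates, was at 942, 827 and 1031 CPM in CTL on day 0 and rose by 0.69 ± 0.14 in CTL and 1.43 ± 0.14 in LIP (SE, edgeR adjusted p = 0.000718 and 1.07e-06). Rpl13a, which is known for a role in silencing inflammatory messages, was at 927, 734 and 1018 CPM in CTL on day 0 and at 1393, 1545 and 1697 CPM on day 2, a rise of 0.79 ± 0.14 in CTL and 1.33 ± 0.14 in LIP. Rpl3, at the peptidyl transferase centre, rose by 1.13 ± 0.15 and 1.83 ± 0.15, Rpl10, which joins the large subunit late in assembly, by 0.76 ± 0.16 and 1.23 ± 0.16, and Rpl22 by 0.92 ± 0.12 and 1.15 ± 0.12. Rpl11 rose by 0.89 ± 0.21 and 1.43 ± 0.21, and its partner Rpl5 by less, as given next. Rps4x and Rpl39, whose near copies Rps4l and Rpl39l had too few counts to test, rose by 0.80 ± 0.15 and 0.68 ± 0.15 in CTL. Rps25, needed for some viral internal ribosome entry, rose by 0.63 ± 0.11 in CTL. Each of these genes was higher in every day 2 library than in any day 0 library of its group.

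At the other end, 11 genes did not pass the test in CTL, all with positive estimates from 0.10 to 0.38, among them Rps21, Rps24, Rpl21, Rps15a, Rpl38, Rps15, Rps29, Rps28, Rps7 and Rplp2. Of these, 8 encode small-subunit proteins, and all 11 rose in LIP. Rps21 gave 0.10 ± 0.17 in CTL (adjusted p = 0.596) and 0.62 ± 0.17 in LIP (adjusted p = 0.00471). The smallest rises that passed in CTL were those of Rpl5 at 0.27 ± 0.10, Rps14 at 0.38 ± 0.14, Rpl35a at 0.43 ± 0.16 and Rpl30 at 0.46 ± 0.13. In LIP they were those of Rpl12 and Rpl5, both 0.49 ± 0.10, Rps21, Rps29 at 0.70 ± 0.25 and Rplp2. Under upper-quartile scaling Rpl5 in CTL stood at -0.018, so its direction rests on the scaling. Rpl5 and Rpl12 are also genes whose reads were mostly assigned to pseudogene copies, as given below.

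The Rps27 pair departed from the rest. Rps27 (chr3:90119819-90120977, minus strand) and Rps27l (chr9:66853340-66856808, plus strand) encode alternative versions of the same zinc-finger protein of the small subunit. Their coding sequences on GRCm39, spliced from 4 exons each and shown without the stop codon, have 252 bases each and differ at 60 of them (76.2% identical), and the longest run they share is 11 bases, so reads can be assigned to one or the other. Differing bases are in capitals.
Rps27: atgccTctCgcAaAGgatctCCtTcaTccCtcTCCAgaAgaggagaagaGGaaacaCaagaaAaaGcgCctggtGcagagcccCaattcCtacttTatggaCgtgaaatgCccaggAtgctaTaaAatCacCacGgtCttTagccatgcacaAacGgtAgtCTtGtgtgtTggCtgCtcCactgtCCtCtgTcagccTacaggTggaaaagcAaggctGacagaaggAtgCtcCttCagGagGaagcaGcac
Rps27l: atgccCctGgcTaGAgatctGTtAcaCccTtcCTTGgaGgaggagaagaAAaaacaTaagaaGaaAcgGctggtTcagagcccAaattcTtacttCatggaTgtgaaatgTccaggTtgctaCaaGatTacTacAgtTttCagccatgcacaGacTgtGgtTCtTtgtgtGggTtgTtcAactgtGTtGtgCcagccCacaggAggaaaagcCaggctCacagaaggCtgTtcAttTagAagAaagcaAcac
Rps27 was at 581, 421 and 610.5 CPM in CTL on day 0 and at 403, 413 and 425 CPM on day 2, the log2 change being -0.38 ± 0.14 (SE, edgeR adjusted p = 0.032). CTL 89 on day 0 lay within the day 2 range, and the call was lost when any of CTL 88, CTL 94 (day 0), CTL 92, CTL 93 or CTL 97 (day 2) was left out and under a correction for transcript length (adjusted p = 0.126). In LIP Rps27 was at 540.1, 487 and 462 CPM on day 0 and 467, 620.3 and 461 CPM on day 2. Rps27l was at 10.5, 8.67 and 12.9 CPM in CTL and 12.7, 11.1 and 13.5 CPM in LIP on day 0. On day 2 it was at 145, 143 and 129 CPM in CTL and at 165, 80.05 and 59.9 CPM in LIP. Every day 2 library was above every day 0 library, and its log2 change, 3.70 ± 0.31 in CTL (adjusted p = 2.35e-07) and 3.03 ± 0.31 in LIP (adjusted p = 1.08e-06), was the largest of the 77 in both groups.

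Rps27l took 1.96 ± 0.15% of the counts of the pair in CTL on day 0 and 25.2 ± 1.70% on day 2 (SD, n = 3). In LIP it took 2.29, 2.23 and 2.84% on day 0 and 26.1, 11.4 and 11.5% on day 2. LIP 90 was thus at the CTL level and LIP 96 and LIP 97 at less. The share differed between days in both groups with an exact two-sided permutation p of 0.1, the smallest that 3 against 3 libraries allow, and between LIP and CTL on day 2 with p = 0.3. On day 0 it was higher in LIP (2.46 ± 0.33%) than in CTL, without overlap, and by the means the other way round from day 2, also with an exact two-sided p of 0.1. The transcripts of the pair are of nearly equal length, and per kilobase the share on day 2 was 25.03 ± 1.69% in CTL and 16.2 ± 8.38% in LIP. Among p53 targets listed beside it, Cdkn1a, the cell-cycle inhibitor p21, was at no more than 0.704 CPM in any day 0 library, near the floor of 3 counts. Mdm2, the ubiquitin ligase of p53, rose with stimulation by 1.02 ± 0.11 in CTL and 0.72 ± 0.11 in LIP. On day 2 Cdkn1a was at 262, 303 and 215 CPM in CTL and 212, 133 and 128 CPM in LIP (-0.74 ± 0.21, edgeR adjusted p = 0.171), and the 2 libraries lowest in Cdkn1a were also the 2 lowest in Rps27l.

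**Figure D3:**
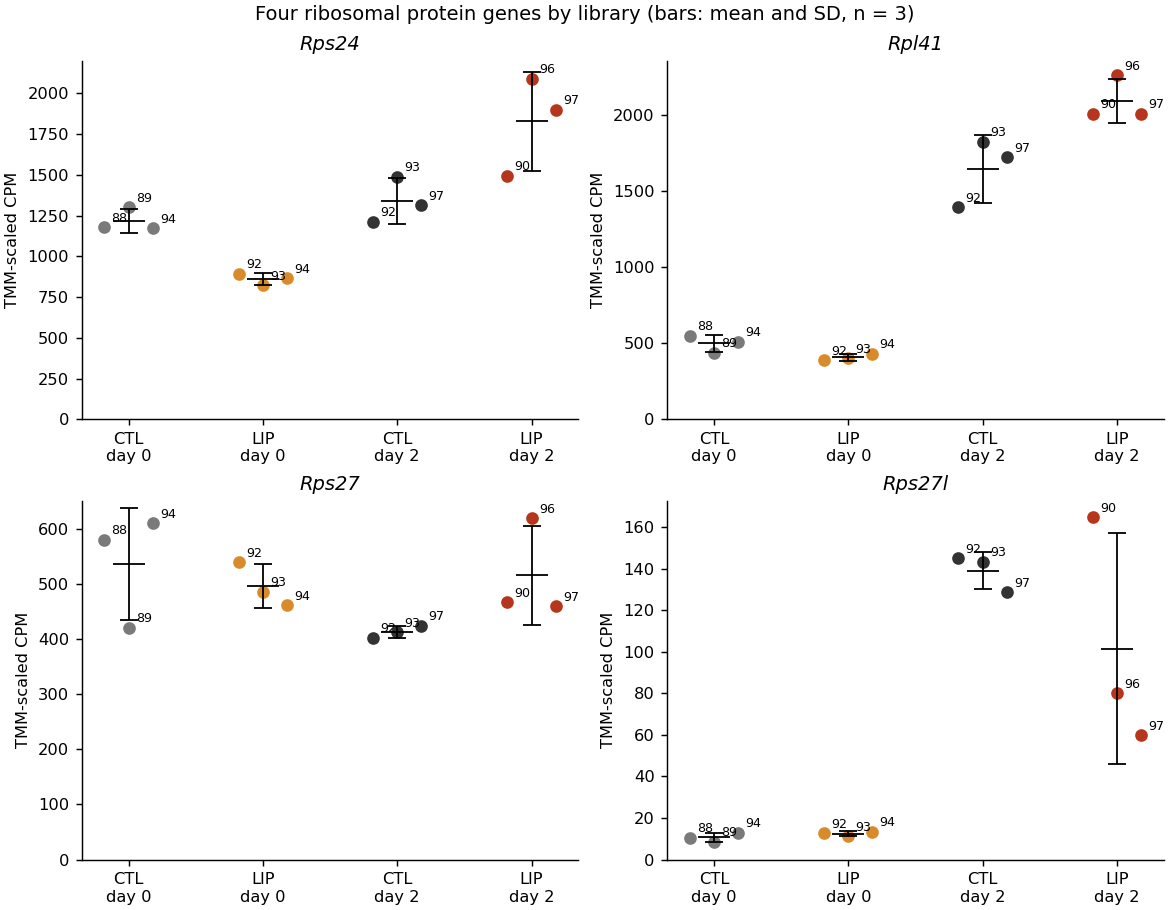
TMM-scaled CPM of Rps24, Rpl41, Rps27 and Rps27l in each library, bars giving the group's mean and SD (n = 3). Rps24 is lower in LIP than in CTL on day 0 and higher on day 2, Rpl41 is higher on day 2 in both groups, Rps27 shows no such separation, and Rps27l separates the days, with LIP 90 apart from LIP 96 and LIP 97.

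The effect of periodontitis on unstimulated cells was then taken from LIP against CTL on day 0. Rps24 fell and no other member was called, against 0.427% of the 14064 genes called in either direction. At an unadjusted p below 0.05, 29 members were lower in LIP and 0 higher (37.7% lower), against 7.2% of all genes lower and 6.67% higher. For 24 members every LIP library lay below every CTL library and for 0 above (31.2% below), against 9.86% and 9.25% of all genes. By sign 68 members were lower and 9 higher, with a median log2 fold change of -0.19, equal for both subunits, beside 0.01 for all genes. The differences were small, from -0.49 to 0.22, and ribosomal protein genes are correlated with each other, so the counts are not so many independent observations.

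Rps24 (chr14:24537193-24547028, plus strand) encodes a small-subunit protein needed to process the precursor of the small ribosomal RNA. It was at 1179, 1301 and 1174 CPM in the CTL libraries of day 0 and at 894, 824 and 868 CPM in the LIP libraries. The groups did not overlap, and the log2 fold change was -0.49 ± 0.08 (SE, edgeR adjusted p = 0.0174). The call was lost without CTL 88 (adjusted p = 0.0779), LIP 92 (0.0829), LIP 93 (0.206) or LIP 94 (0.142) and when all 12 libraries were fitted together (0.318), the adjusted p-values of all alternatives running from 2.06e-08 to 0.318. Its CTL libraries did not follow the rest of the genes, CTL 89 being the highest for Rps24 and the lowest for 65 of the 77.

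Among the members at an unadjusted p below 0.05, Rpsa, the scaffold protein also known as laminin receptor, was at 1561, 1663 and 1711 CPM in CTL and 1375, 1142 and 1349 CPM in LIP (-0.35 ± 0.09, edgeR adjusted p = 0.133). Rps19 was at 478, 427 and 508 CPM in CTL and 413, 365 and 355 CPM in LIP (-0.31 ± 0.09, adjusted p = 0.153). Rps3, a protein at the messenger RNA entry channel that also takes part in DNA repair, was at 1086, 871 and 1081 CPM and at 769, 819 and 808 CPM (-0.34 ± 0.09, adjusted p = 0.151). The 3 genes had no LIP library within the CTL range. On the large subunit Rpl28 (-0.32 ± 0.08), Rpl6 (-0.30) and Rpl4 (-0.29), a protein of the exit tunnel, likewise had lower estimates. Rpl11 at 0.14 ± 0.16 and Rps18 at 0.15 ± 0.17 were among the 9 with higher estimates.

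Single CTL libraries bore on these counts. CTL 89 was the lowest of its group for 65 of the 77 genes (median log2 deviation -0.21) and CTL 94 the highest for 63 (0.16). Without CTL 89 the called members numbered 10 (12.99%, against 0.668% of all genes) and those at an unadjusted p below 0.05 numbered 59, where 13.3% of all genes passed either way, with a median of -0.28. Without CTL 94 the called members numbered 2 (2.60%, against 4.59% of all genes), a share below that of all genes. The unadjusted count was then 21 lower and 3 higher, where 21.1% of all genes passed either way, and the median was -0.09, with 53 members lower and 24 higher. Without LIP 93 the unadjusted count was 15, against 8.85% of all genes. The 5 activation markers, all detected, did not move together. Their sum was 529 to 665 CPM in CTL and 460 to 479 in LIP on day 0, and it was carried by Cd69, an early marker, at 387, 297 and 215 CPM in CTL and 176, 152 and 152 CPM in LIP. Il2ra, the IL-2 receptor alpha chain, ran the other way without overlap, at 91.3, 78.1 and 77.6 CPM in CTL and 101, 103 and 107 CPM in LIP, and Mki67, Tfrc and Myc overlapped. The CD4 T cell markers overlapped, at 2484 to 2789 CPM in CTL and 2299 to 2556 in LIP. The 8 pancreatic acinar markers summed to 0.652 to 1.38 CPM in CTL and 0.781 to 14.5 CPM in LIP, LIP 93 and LIP 94 being the high libraries, and the 3 NK cell markers to 2.02 to 5.92 CPM in CTL and 5.91 to 10.1 CPM in LIP. The part of these markers in the result was not tested. Mki67, which marks dividing cells, was at 63.9, 28.7 and 126 CPM in CTL and at 77.02, 94.7 and 92.7 CPM in LIP, lowest in CTL 89 and highest in CTL 94, which are the libraries lowest and highest for most members.

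Among stimulated cells LIP was compared with CTL on day 2. No member passed the adjusted threshold (lowest adjusted p = 0.138), nor did any of the 14041 genes tested (0%). At an unadjusted p below 0.05, 36 members were higher in LIP and 0 lower (46.8%), against 8.33% of all genes higher and 8.2% lower. DESeq2 called 5 members (6.49%), against 3.45% of all genes. For 36 members every LIP library lay above every CTL library and for 0 below, against 10.9% and 10.5% of all genes. By sign 75 members were higher and 2, Rps27l and Rpl12, lower. The median was 0.35, with 0.36 for small-subunit and 0.34 for large-subunit genes, beside -0.01 for all genes.

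Rps18 had the highest estimate. This gene of the head of the small subunit (chr17:34170972-34175057, minus strand) was at 187, 162 and 251 CPM in CTL and 258, 399 and 387 CPM in LIP on day 2, a log2 fold change of 0.79 ± 0.22 (SE, edgeR adjusted p = 0.157). LIP 90 was only just above CTL 97. Rps7 followed, at 98.8, 116 and 142 CPM in CTL and 152, 205 and 216 CPM in LIP (0.68 ± 0.18, adjusted p = 0.15). Rpl11 was at 254, 237 and 359 CPM in CTL and 355, 551 and 442 CPM in LIP (0.66 ± 0.21, adjusted p = 0.193), LIP 90 lying within the CTL range. Rpl35 (chr2:38891591-38895637, minus strand), which sits at the mouth of the exit tunnel, was at 394, 520.0 and 473 CPM in CTL and 646, 824 and 701 CPM in LIP (0.64 ± 0.15, adjusted p = 0.138), with no overlap and the lowest p of the 77. Rpl10a was at 678, 664 and 707 CPM and at 719, 1225 and 1078 CPM (0.55 ± 0.20, adjusted p = 0.223). Rps6 was at 1376, 1523 and 1609 CPM in CTL and 1672, 2548 and 2291 CPM in LIP (0.52 ± 0.18, adjusted p = 0.217). Among the smallest differences at an unadjusted p below 0.05 were those of Rpl30 (0.33 ± 0.14), Rpl29 (0.33 ± 0.13), Rps10 (0.36 ± 0.15) and Rpl8 (0.37 ± 0.16). Rps19, at 0.09 ± 0.13, was near no difference here.

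The LIP libraries of day 2 differed from each other in these genes. LIP 96 was the highest of its group for 65 of the 77 (median log2 deviation 0.20) and LIP 90 the lowest for 57 (-0.18), and CTL 97 was the highest CTL library for 59. Without LIP 90, 39 members were called higher and 1, Rps27l, lower, with 62 higher and 1 lower at an unadjusted p below 0.05 and a median of 0.47. Calls rose across all genes in that setting too, to 13.9% from 0%, with 29.8% at an unadjusted p below 0.05. Rps27l then stood at -0.97 (edgeR adjusted p = 0.00253), against -0.47 ± 0.31 (adjusted p = 0.487) with the 3 LIP libraries. Without CTL 92, CTL 93 or LIP 96 the unadjusted count was 8, 9 and 9 of the 77, near the 11.0, 8.71 and 9.70% of all genes that passed either way in those settings, and without LIP 97 it was 23, against 11.7% of all genes. The median without CTL 92, CTL 93 or LIP 96 was 0.33, 0.34 and 0.28, and 75, 75 and 76 of the 77 were still higher in LIP by sign. LIP 90 also stood apart in other measures. Of the LIP libraries of day 2 its treatment label alone names anti-CD28, as that of CTL 92 alone does among CTL. Tfrc, the transferrin receptor of dividing cells and one of the 5 activation markers, was at 1614 CPM in LIP 90 and 286 and 569 CPM in LIP 96 and LIP 97, with 1118 to 1312 CPM in CTL. The 5 activation markers together overlapped between the groups, at 5110 to 5310 CPM in CTL and 4108 to 5833 in LIP. Ms4a1, which encodes the B cell protein CD20, was at 5.91, 6.60 and 10.2 CPM in CTL 97, LIP 96 and LIP 97 and at most 0.302 CPM in CTL 92, CTL 93 and LIP 90. LIP 96 and LIP 97 had the largest ribosomal protein sums of day 2 and CTL 97 the largest among CTL. The part of these differences in the result was not tested.

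**Figure D4:**
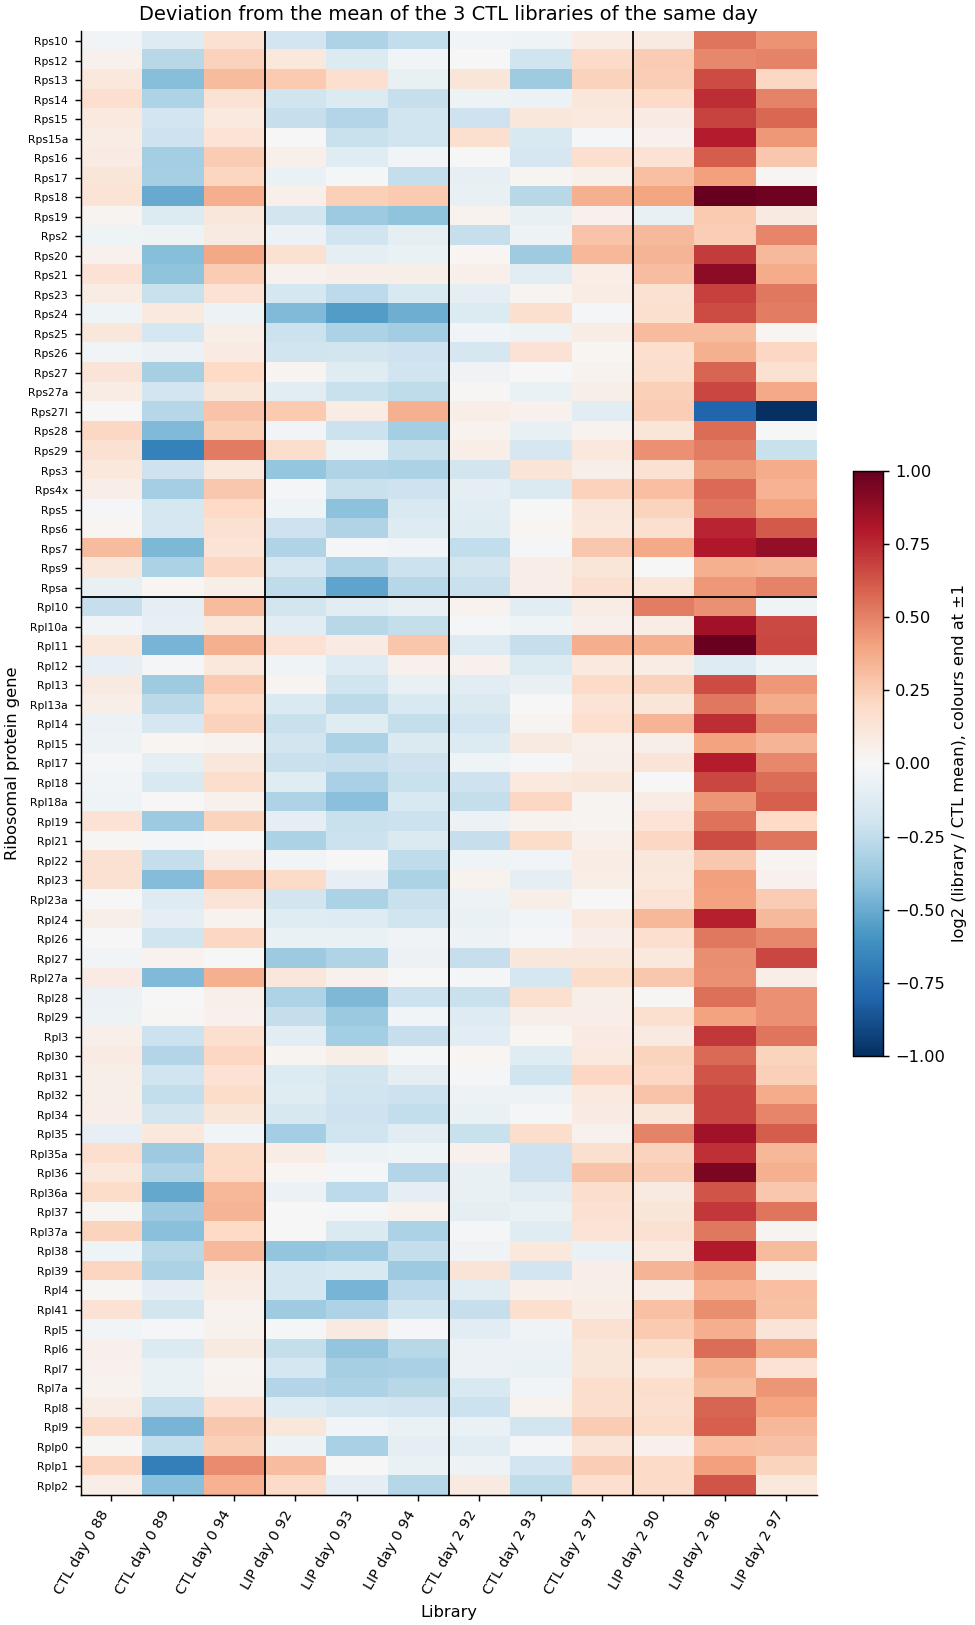
Log2 ratio of each library to the mean of the 3 CTL libraries of its day, for 75 of the 77 tested genes (small subunit above the horizontal line, large subunit below), with colours ending at ±1. The day 0 LIP columns are mostly blue and the day 2 LIP columns mostly red, most strongly in LIP 96 and least in LIP 90, with Rps27l running the other way in LIP 96 and LIP 97.

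The question whether the LIP effect differed between unstimulated and stimulated cells was put to the difference of the 2 effects, in a fit of all 12 libraries. It shares libraries with both comparisons above and, like the stimulation contrasts, is not a separate observation. No member passed the adjusted threshold (lowest adjusted p = 0.074), where 0.0517% of the 15475 genes did. At an unadjusted p below 0.05, 53 members had a higher LIP effect on day 2 than on day 0 and 0 a lower one (68.8%), against 8.65% of all genes higher and 7.28% lower. DESeq2 called 32 members (41.6%), against 3.05% of all genes. The median difference was 0.54 (0.56 for the small and 0.54 for the large subunit) and 76 of 77 estimates were positive, Rps27l at -0.67 ± 0.43 (adjusted p = 0.488) being the exception. Without LIP 90 41 members were called higher and Rps27l lower (54.5%), against 10.1% of all genes in that setting, and without any other single library 0 members were called.

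Rps24 had the largest difference. Its LIP effect was -0.49 on day 0 and 0.44 ± 0.17 on day 2, where it was at 1212, 1489.5 and 1314 CPM in CTL and 1494, 2091 and 1899 CPM in LIP, with LIP 90 just above CTL 93. The difference was 0.95 ± 0.18 (SE, edgeR adjusted p = 0.074, from 5.52e-05 to 0.212 over the alternatives). Equivalently, Rps24 gave 0.14 ± 0.12 with stimulation in CTL (adjusted p = 0.341) and rose by 1.08 ± 0.13 in LIP (adjusted p = 3.92e-06). Rpl35 differed by 0.86 ± 0.17 (adjusted p = 0.08), Rps7 by 0.83 ± 0.27, Rpl38, known for its part in translating Hox messages, by 0.78 ± 0.24 and Rpl10a by 0.77 ± 0.21. The smallest at an unadjusted p below 0.05 were Rps19 (0.42 ± 0.15), Rps12 (0.44), Rps26 (0.44 ± 0.14), Rps2 (0.46) and Rpl26 (0.47). For Rpl12 the difference was 0.00 ± 0.14.

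By sign 67 of the 77 genes were lower in LIP on day 0 and higher on day 2, against 24.1% of all genes tested on both days, and 15 also had an unadjusted p below 0.05 on both days, against 0.827%. For 13 genes the LIP libraries lay wholly below the CTL libraries on day 0 and wholly above them on day 2, against 1.41% of the 12946 genes tested on both days: Rps3, Rps10, Rps24, Rps26, Rpl4, Rpl6, Rpl10a, Rpl17, Rpl21, Rpl23a, Rpl24, Rpl35 and Rpl41. Rps26 shows the pattern at small size, with 264 to 292 CPM in CTL and 239 to 242 in LIP on day 0, and 697 to 865 CPM in CTL and 878 to 999.9 in LIP on day 2.

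**Figure D5:**
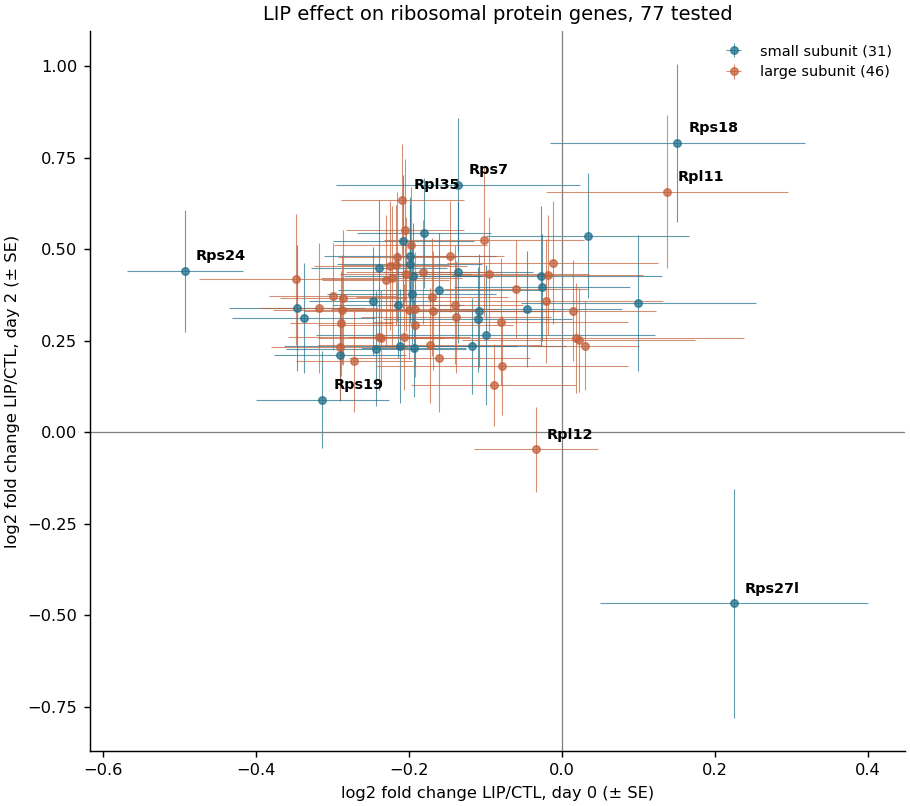
Log2 fold change LIP over CTL on day 0 (horizontal) and day 2 (vertical) of the 77 tested ribosomal protein genes, with standard errors as lines; the 2 days use separate libraries. Of the 77 points 67 lie in the upper left part, with Rps24 farthest to the left, Rps18 highest and Rps27l alone at the lower right.

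Ribosomal protein genes have many processed pseudogenes, and these bear on how reads were shared out. On GRCm39, 1110 gene records outside the 79 matched a member's transcript at 90% identity or more over at least 100 bases, 655 of them carried counts, and 76 members had such a copy. Copies took between 15.9 and 18.5% of the counts of members and copies together in each library. More than 50% of the counts lay in copies for 7 members: Rps2 (94.7%), Rpl12 (93.8%), Rpl5 (93.8%), Rps7 (83.6%), Rpl3 (59.2%), Rpl21 (58.4%) and Rpl27a (52.7%), and the levels of these genes are uncertain. Rps20 had 49.4%, Rpl26 44.6%, Rps18 41.8% and Rpl11 30.2% in copies, while Rpl10a had 0.0189%. With the matched copies added to their genes, the summed levels were 39058 CPM in CTL and 33314 in LIP on day 0 and 67287 and 86092 CPM on day 2.

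Other TOP messages, a list of 16, were taken beside the ribosomal protein genes. They are translation elongation and initiation factors, RNA-binding proteins, Tpt1, Nap1l1 and the nascent-chain proteins Naca and Btf3, and include Eef1a1, which delivers aminoacyl-tRNA to the ribosome, and Npm1, a nucleolar chaperone. With stimulation 14 of the 16 rose in CTL (median 1.17) and 16 of 16 in LIP (1.57), where 35.3 and 36.6% of all genes rose. For Npm1 the rises were 1.91 and 2.54, for Btf3, a subunit of the nascent polypeptide-associated complex, 1.43 and 2.22, and for Eef1g 1.63 and 2.15. On day 0 6 were lower and 1 higher in LIP at an unadjusted p below 0.05 (median -0.17), on day 2 7 were higher and 0 lower (0.27), and none was called. Of all genes 7.2% were lower and 6.67% higher on day 0, and 8.33% higher and 8.2% lower on day 2. Eef1a1 was at 8394 to 9370 CPM in CTL on day 2 and at 9729, 17562 and 14548 CPM in LIP, LIP 90 again the lowest. Like Rps24, Eef1a1 gave a small estimate with stimulation in CTL (0.16 ± 0.17, edgeR adjusted p = 0.408) and rose in LIP (1.10 ± 0.17, adjusted p = 5.42e-05), the difference being 0.94 ± 0.24 (SE, not past the adjusted threshold).

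A further 8 genes that the naming rule left out encode ribosomal proteins under other names, fusions or paralogues. Among them were Fau, Rack1, Rps3a1, Rps27rt, Rpl22l1, Rpl7l1 and Rpl36al. At an unadjusted p below 0.05 5 were lower and 0 higher in LIP on day 0 (median -0.29) and 4 higher and 0 lower on day 2 (0.43), none of them called, against 7.2% of all genes lower on day 0 and 8.33% higher on day 2. With stimulation 4 rose and 1 fell in CTL, against 35.3 and 33.7% of all genes, and 7 rose in LIP, against 36.6%. Rpl22l1, the paralogue of Rpl22, was at 103, 64.8 and 101 CPM in CTL and 140, 256 and 153 CPM in LIP on day 2 (1.02 ± 0.26, edgeR adjusted p = 0.145), while Rpl22 was at 163, 165 and 177 CPM in CTL and 182, 203 and 172 CPM in LIP (0.13 ± 0.11). Rpl22l1 took 34.4 ± 5.49% of the counts of that pair in CTL and 48.8 ± 6.37% in LIP on day 2 (SD, n = 3, exact two-sided permutation p = 0.1, the smallest possible), and 44.3 ± 2.66 and 43.9 ± 2.40% on day 0 (p = 0.7). Fau, a ubiquitin-like fusion with a small-subunit protein, was at 439, 407 and 469.9 CPM in CTL and 376, 338 and 354 CPM in LIP on day 0 (-0.30 ± 0.08, edgeR adjusted p = 0.142) and at 482 to 557 CPM in CTL and 594 to 828 in LIP on day 2 (0.44 ± 0.16, adjusted p = 0.222). Rack1, a scaffold on the small subunit, rose with stimulation by 0.96 ± 0.14 in CTL and 1.48 ± 0.14 in LIP. The gene that fell in CTL was Rps27rt, a retrotransposed copy of Rps27, at 0.480 to 11.0 CPM in the 12 libraries. Rps27a, a member that is made as a fusion with ubiquitin, rose with stimulation by 0.85 ± 0.12 and 1.49 ± 0.12.

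Genes whose products build ribosomes without being part of them were listed separately. Of 19 genes of ribosome biogenesis, the nucleolar and RNA polymerase I factors, 16 rose with stimulation in each group, against 35.3% of all genes in CTL and 36.6% in LIP, with medians of 1.09 and 1.13. Myc, the transcription factor that drives ribosome production, rose by 1.60 ± 0.21 in both groups, and Gar1 and Nhp2, proteins of the particles that pseudouridylate ribosomal RNA, by 2.22 ± 0.23 and 1.84 ± 0.22 in CTL. At an unadjusted p below 0.05 1 was higher and 1 lower in LIP on day 0 (median -0.07). Of all genes 6.67% were higher and 7.2% lower. On day 2 0 passed (median -0.08), against 8.33% higher and 8.2% lower. For 0 the LIP effect differed between days, against 8.65% higher and 7.28% lower (median difference 0.04, beside 0.54 for the ribosomal protein genes). These day 2 values average over LIP libraries that differed. For every gene of the list LIP 90 was the highest LIP library. LIP 96 and LIP 97 lay within or below the CTL range for each. Of the ribosomal protein genes, 57 of 77 had LIP 90 as the lowest LIP library. The counts thus cannot show that the list was unaffected by LIP. Of 10 assembly factors and chaperones dedicated to ribosomal proteins, 6 rose in CTL and 7 in LIP, against 35.3 and 36.6% of all genes. On day 2 1 was higher and 1 lower in LIP at an unadjusted p below 0.05, close to the 8.33 and 8.2% of all genes. The higher one was Pdcd2, a chaperone of Rps2, at 14.5, 11.2 and 13.3 CPM in CTL and 15.9, 26.4 and 25.6 CPM in LIP (0.79 ± 0.22, edgeR adjusted p = 0.168). Of 8 regulators of TOP messages, 4 rose and 2 fell in CTL and 3 rose and 4 fell in LIP, where 35.3% of all genes rose and 33.7% fell in CTL and 36.6 and 35.2% in LIP. One of them, Eif4ebp1, the translation repressor that mTOR inactivates, was at 15.01, 19.1 and 14.9 CPM in CTL and 26.2, 60.01 and 61.2 CPM in LIP on day 2 (1.58 ± 0.31, edgeR adjusted p = 0.118), with the higher levels in LIP 96 and LIP 97, the libraries in which the ribosomal protein sum was highest. Among the members, a C with at least 4 pyrimidines within 5 bases of the annotated start went with a median stimulation of 0.68 in CTL and 1.29 in LIP, and its absence with 0.88 and 1.37. On day 2 the median LIP effect was 0.34 with and without it.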

How the data were processed

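Total RNA of CD4+ T cells was depleted of ribosomal RNA, made into directional libraries and sequenced in paired ends. The authors aligned the reads to GRCm39 and deposited RSEM expected counts per Ensembl gene (RSEM 1.3.0, Bowtie2, FastQC 0.11.9 and Trimmomatic 0.38 per the labels' processing notes), not normalized. RSEM shares reads that match several genes between them, which touches genes with pseudogene copies. The deposited result tables also hold gene numbers and symbols, which were used, and the authors' own fold changes and p-values, which were not; 2 columns of libraries outside the labelled samples were left out.

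Expected counts were rounded. Genes passing edgeR's filterByExpr were scaled by TMM and tested with glmQLFit and glmQLFTest (edgeR 4.0.16, R 4.3.3), LIP against CTL on the 6 libraries of each day, and stimulation and the difference of the LIP effects in one fit of 12 libraries, with Benjamini-Hochberg adjustment over all genes tested. SEs were taken as the log2 fold change divided by the square root of the F statistic. Levels carry the SD of 3 libraries. A count of 3, taken as the floor, is 0.233 to 0.480 CPM by library, for counting error only. Copies were found with blastn 2.17.0. On simulated counts with a log2 change of 1, edgeR recovered 72.5% (day 0, 10.5% of calls false, among 14064 genes) and 57% (day 2, 4.2% false, among 14041). Among 15475 it recovered 66% (CTL stimulation, 3.65% false), 63% (LIP stimulation, 6.67% false) and 26.5% (the difference, 7.02% false). The members' median LIP effects, -0.19 on day 0 and 0.35 on day 2, were smaller than this, and recovery at their size was not tested.

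The members and lists were chosen with earlier results of these data known. Genes were named by rule: each called gene in the day 0 comparison, and for the others the genes at either end, 5 each, when those called (or, where none was called, those at an unadjusted p below 0.05) were ordered by log2 fold change. Genes chosen for their roles (such as Rps6, Rps19, Rpsa, Rpl22 and the stalk genes), the paralogues, the related genes and up to 4 per list were named too. Rps3, Rpl4, Rpl6, Rpl28 on day 0, Eef1a1, Pdcd2, Tfrc, Ms4a1 and Mki67 were singled out after their values were seen. Alternatives were other scalings (RLE, upper quartile, without the members), DESeq2 1.42.0, other filters, length and GC offsets, pseudogene counts added, other sets of libraries, and each library left out. Adding matched copies, joining length with GC offsets and a block on the library numbers were chosen after seeing the data. Values of single genes withheld from the text are not reported here, though the counts and medians include them.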

Additional observations from a re-analysis of the deposited data

Results flagged for a closer look

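A pair of results stood out by differing between the days. The LIP effect was higher on day 2 than on day 0 at an unadjusted p below 0.05 for 53 of the 77 ribosomal protein genes, by the test of the difference itself in edgeR, against 8.65% of all genes tested, and none passed adjustment over all genes (lowest adjusted p = 0.074). For 13 genes every LIP library lay below every CTL library on day 0 and above every CTL library on day 2, against 1.41% of genes tested on both days. The day 0 and day 2 libraries of this pattern are separate samples, and it was read from the levels and not tested as such.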

How the results depend on the processing

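Shares of all genes in the same setting follow in parentheses. The number of members called on day 0 (1) became 9 with DESeq2 (1.24%), 13 without a filter (2.52%), 2 with named pseudogenes (0.413%) or matched copies (0.407%) added and 0 in one fit of 12 libraries (0.0775%), and ranged from 0 to 10 when single libraries were left out. Those at an unadjusted p below 0.05 (29) became 12 in one fit (7.32%) and ranged from 15 to 59. On day 2 the called members (0) became 5 with DESeq2 (3.45%), 5 without a filter (2.57%) and 7 in one fit (5.01%), and ranged from 0 to 40 (13.9% at 40, without LIP 90), and those at an unadjusted p below 0.05 (36) became 56 without a filter (12.504%) and in one fit (21.7%) and ranged from 8 to 63. For the difference the called members (0) became 32 with DESeq2 (3.05%) and 31 without a filter (2.89%) and ranged from 0 to 42 (10.1% at 42, without LIP 90). The median change with stimulation became 0.47 in CTL and 1.00 in LIP under upper-quartile scaling, and ranged from 0.65 to 0.92 in CTL when single libraries were left out. Rpl5 in CTL turned to -0.018 under upper-quartile scaling. LIP and CTL shared 1 library number a day, too few for a paired fit of either day, but 4 of the 8 numbers recurred in the 12 libraries. The deviations of same-numbered libraries from their group means correlated across genes at -0.05 to 0.10. With so few libraries this cannot tell whether same-numbered libraries had an animal or a batch in common. A replicate block on it, chosen after seeing the data, left 1 residual degree of freedom. It moved the members called with stimulation in CTL from 66 to 36 (44.2%), their median to 0.50 in CTL and 1.10 in LIP, and the members called for the difference from 0 to 4 (3.55%), and Rps29 in LIP turned to -0.056. The cause of these shifts was not tested. Of the other summary values, 141 moved by less than 1.5 times or the spread between libraries, as did 80 with a library left out. Among named genes and sums, 38 values fell short of their threshold and 10 newly passed it under settings that keep all libraries, where 9 moved and 2 (Rpl5 and Rps29) reversed, and with a library left out 66 fell short and 7 newly passed. Depth limited Rps4l and Rpl39l, which had too few counts to test.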
